A study of Arabidopsis thaliana with 8 samples.

Results

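*COR15A* (AT2G42540), *COR15B* (AT2G42530) and AT4G30650 were followed over the day in rosettes of a starchless Arabidopsis mutant. Each gene has 1 probe set, so the members are 3 of the 13513 probe sets that the platform's gene table ties to 1 gene. They were picked by name because they were among the largest rises at 12h relative to 00h on these same arrays. Their 12h to 00h change and their fitted daily curve are therefore given as a description, without a test. The plants were *Arabidopsis thaliana* pgm mutants in the Col-0 accession, 5 to 6 weeks old, which lack plastidial phosphoglucomutase and so make almost no leaf starch. RNA of whole rosettes, pooled from 15 plants per sample, was hybridised to 8 one-colour Affymetrix arrays covering 6 hours of 1 day. There was 1 array for each of 04h, 08h, 16h and 20h, and there were 2, lettered A and B, for 00h and for 12h. Every group carries the mutation, a wild type is not analysed here, and the labels used here give neither the temperature nor the hours of light. Nor do they state if the lettered arrays stem from different plants, so the errors and p-values below rest on array-to-array spread that could be purely technical.

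*COR15A* and *COR15B* encode small, hydrophilic proteins of the late embryogenesis abundant type that are imported into the chloroplast stroma and protect leaf membranes during freezing. In Arabidopsis both are targets of the CBF transcription factors, which bind a CCGAC-type element and are switched on by cold. The circadian clock gates this pathway, so cold-response genes can cycle over the day in plants that are not chilled. The 2 *COR15* genes are direct neighbours on chromosome 2 in the RefSeq gene order (assembly TAIR10.1). AT4G30650 lies on chromosome 4, and the gene tables used here give it a locus and no symbol. It was placed in a list of the RCI2 family, named after *RCI2A*, a rare-cold-inducible gene, and this grouping was not checked against an annotation here.

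Values are intensities from MAS5, Affymetrix's probe-set summary, which the authors scaled to 1 common mean per array. The 6 measured leaf markers had intensities from 382.5 to 6704.5. Among markers of other tissues, *SWEET11*, a phloem sucrose transporter gene, had 501.9 to 1244.3, *PYK10*, a gene best known from roots, 89.3 to 300.0 and *FMA*, a guard-cell gene, 41.5 to 88.1. Levels of different probe sets cannot be set against each other. *PYK10* was lower at 12h, with 123.5 ± 4.67, against 285.9 ± 19.9 at 00h (SD, n = 2 arrays each). Its log2(intensity + 16) differed by -1.11 ± 0.207 (SE; limma adjusted p = 0.00182). The leaf marker *LHCB4.2* was also called lower at 12h (-0.84 ± 0.3, limma adjusted p = 0.0463). The other leaf markers, *SWEET11* (-0.48 ± 0.308) and *FMA* (0.11 ± 0.287) did not pass. The ratio of 3' to 5' actin probe sets, a measure of RNA integrity, was 3.11 and 3.19 on the 12h arrays and 2.29 to 2.74 on the other 6. The part of these marker changes or of the actin ratio in the members' values was not tested. The A arrays of 00h and 12h stood apart in their 18 hybridisation control probe sets, whose mean was 1562.1 and 1573.6, against 415.7 to 522.9 on the other 6 arrays. In these bulk samples fewer cells of a type and less RNA per cell cannot be told apart.

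*COR15A* had its lowest hourly mean at 00h and its highest at 12h. Its intensity was 38.0 and 21.9 at 00h, 375.0 at 04h, 1574.7 at 08h, 2452.2 and 1452.8 at 12h, 324.2 at 16h and 46.7 at 20h. The gene was thus well above both 00h arrays by 04h and back near them at 20h. The mean was 1952 ± 707 at 12h and 29.95 ± 11.4 at 00h (SD, n = 2 arrays each). No fold is given, since the 00h values lie near the median intensity of their arrays (31.0 and 29.9) and no detection call is used here. The place of its maximum depends on a single array: 12h A lay above the 08h array and 12h B below it. On the log2(intensity + 16) scale the difference of 12h minus 08h was 0.26 ± 0.347 (SE).

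*COR15B* had its highest value at 08h. Its intensity was 17.1 and 25 at 00h, 130.0 at 04h, 1572.0 at 08h, 882.3 and 760.3 at 12h, 140.7 at 16h and 34.2 at 20h. Both 12h arrays lay far below the single 08h array and far above every array of the remaining hours. The mean was 821.3 ± 86.3 at 12h and 21.05 ± 5.59 at 00h (SD, n = 2 arrays each). Both 00h values lie below the medians of their arrays, so no fold is given here either. The log2 difference of 12h minus 08h was -0.93 ± 0.267 (SE), against 0.26 for *COR15A*. That contrast between the paired genes was not tested.

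AT4G30650 stayed near its highest level from 08h to 12h. Its intensity was 52.5 and 43.5 at 00h, 213.8 at 04h, 2082.8 at 08h, 2578.0 and 1829.8 at 12h, 461.3 at 16h and 170.1 at 20h. As for *COR15A*, the 08h array lay between the 2 arrays of 12h, so neither hour can be named as its maximum. The 12h mean of 2204 ± 529 was 45.9 times the 00h mean of 48.0 ± 6.36 (SD, n = 2 arrays each). At 20h the gene was still above both 00h arrays by more than these arrays differed, with a log2 difference of 00h minus 20h of -1.54 ± 0.289 (SE). The same difference was -0.47 ± 0.347 for *COR15A* and -0.45 ± 0.267 for *COR15B*.

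**Figure D1:**
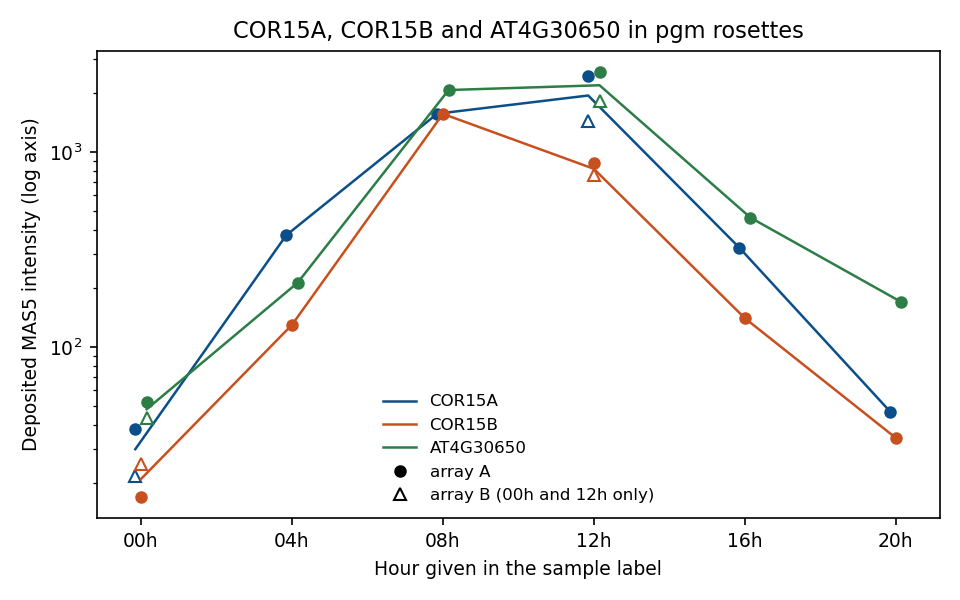
Deposited MAS5 intensity (log axis) of COR15A, COR15B and AT4G30650 against the hour in the sample label. Filled circles are arrays A, open triangles arrays B (00h and 12h only), and lines join hourly means; all genes are lowest at 00h, COR15B is highest at 08h (1572.0), and the 12h arrays of COR15A (2452.2 and 1452.8) lie on both sides of its 08h array (1574.7).

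The pair of 12h arrays differed more for *COR15A* and AT4G30650 than for *COR15B*. The ratio of 12h A over 12h B was 1.69 for *COR15A*, 1.41 for AT4G30650 and 1.16 for *COR15B*, with a median of 0.987 over all tested probe sets. Array 12h A is one of the 2 with high hybridisation controls, and the part of this in the difference was not tested. At 00h, where array A also had high controls, the ratio of A over B was 1.74 for *COR15A*, 1.21 for AT4G30650 and 0.684 for *COR15B*.

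Set against each gene's own highest hourly mean, the genes differed in 3 places of the day. At 04h *COR15A* had reached 19.2% of its maximum, AT4G30650 9.70% and *COR15B* 8.27%. The log2 difference of 04h minus 00h was 3.11 ± 0.347 for *COR15A*, 1.85 ± 0.289 for AT4G30650 and 1.99 ± 0.267 for *COR15B* (SE), so on this scale *COR15A* had gone further by 04h. At 12h *COR15B* was down to 52.2% of its maximum, with 56.1% on array A and 48.4% on array B, while the other two had their highest mean there. At 20h AT4G30650 still held 7.72% of its maximum, against 2.39% for *COR15A* and 2.18% for *COR15B*. These differences between genes are descriptions and were not tested.

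The time at which each gene crossed 50% of its maximum was read from straight lines between the hourly means. The upward crossings came together, at 6.00 h for *COR15A*, 5.82 h for *COR15B* and 5.90 h for AT4G30650. With 1 array of 00h and 1 of 12h at a time (4 choices), they ranged from 5.37 to 6.84 h, from 5.82 to 5.82 h and from 5.77 to 6.30 h, so no order can be given. The crossing of *COR15B* rests on the single arrays of 04h and 08h alone. These choices could not move it, so its range says nothing about its spread. The downward crossing of *COR15B* was the earliest, at 12.2 h (11.9 to 12.5 h over the 4 choices). That of *COR15A* was at 14.4 h (14.3 to 14.4 h) and that of AT4G30650 at 14.5 h (14.3 to 14.4 h with single arrays). These ranges leave out the spread of the hours with a single array. The 50% level of *COR15B* comes from its single 08h array and did not vary. For the other genes the level moves with the 12h value wherever that hour is highest, which holds the crossing nearly in place. The ranges therefore cannot decide if *COR15B* fell earlier, and that order was not tested. By the crossings of the hourly means, *COR15B* spent 6.39 h above 50% of its maximum, *COR15A* 8.39 h and AT4G30650 8.63 h. With arrays 4 h apart, these times are interpolations.

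On a log2 scale *COR15A* crossed first. The level midway between lowest and highest log2 mean was crossed at 3.47 h by *COR15A*, 4.85 h by *COR15B* and 4.88 h by AT4G30650. The downward crossing on the log2 scale was again earliest for *COR15B*, at 15.0 h, against 16.3 h for *COR15A* and 17.0 h for AT4G30650. A 24 h cosine fitted to all 8 arrays peaked at 9.91 ± 0.284 h for *COR15B*, 10.1 ± 0.228 h for *COR15A* and 10.9 ± 0.325 h for AT4G30650 (SE). Its amplitude, from mid-level to peak, was 2.71 ± 0.179, 2.96 ± 0.154 and 2.59 ± 0.178 log2 units for these genes in the same order. The fitted peaks of the *COR15* pair lie within 1 SE of each other.

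**Figure D2:**
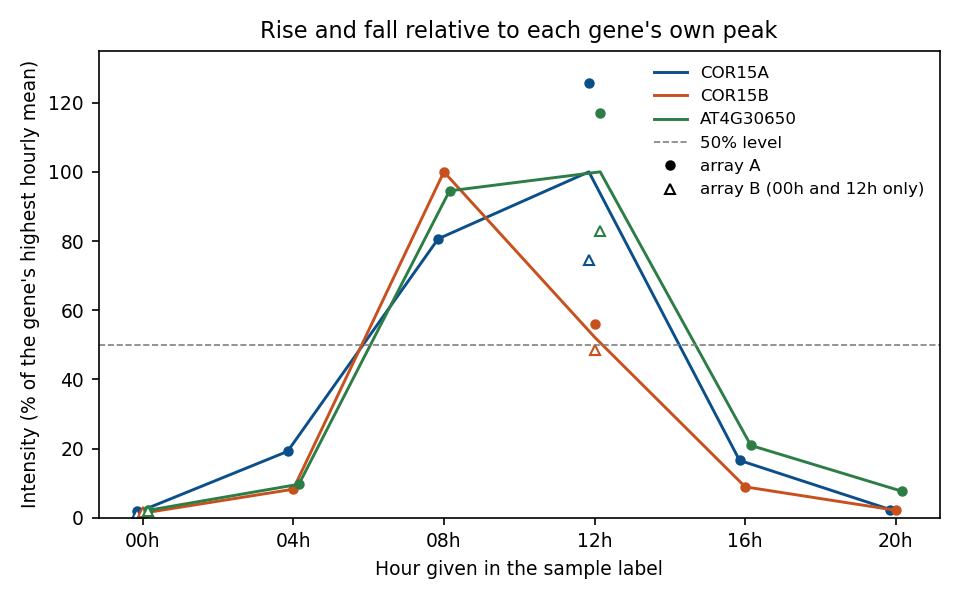
Intensity of each gene as a percentage of its own highest hourly mean (linear axis) against the hour in the sample label, with arrays A as filled circles, arrays B as open triangles, hourly means joined by lines and the 50% level dashed. The lines cross the 50% level together on the way up (5.82 to 6.00 h), while COR15B crosses it first on the way down (12.2 h, against 14.4 h and 14.5 h).

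Tests were confined to 04h, 08h, 16h and 20h, hours outside the 12h to 00h change by which these genes were picked. They are still not independent of the choice, which was made with earlier results of these data known. Genes picked for a high 12h value can be high at the hour before it too. Each of these hours has 1 array, which was assumed to vary like the paired arrays of 00h and 12h. The spread used in the tests thus comes from the arrays on which the genes were picked. The test was limma's linear model on log2(intensity + 16), where 16 is a pseudocount, with p-values adjusted over all 13647 probe sets left after a filter on dim ones and a threshold of 0.05. All 3 genes rose between 04h and 08h. At 08h relative to 04h the log2 difference was 2.02 ± 0.401 for *COR15A* (SE; limma adjusted p = 0.047), 3.44 ± 0.309 for *COR15B* (limma adjusted p = 8.43e-04) and 3.19 ± 0.333 for AT4G30650 (limma adjusted p = 0.00153). Of all 13647 tested probe sets 0.667% were called higher at 08h. Ordered by size, *COR15B* stood at place 12, AT4G30650 at 15 and *COR15A* at 63 of 13647. The call of *COR15A* is near the threshold and ended with a pseudocount of 1 (adjusted p = 0.113), with arrays scaled to 1 median (0.0536) and without the intensity trend (0.0711). Without the filter on dim probe sets no probe set of the array passed, and the adjusted p was 0.388 for *COR15A*, 0.0765 for *COR15B* and 0.105 for AT4G30650.

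All 3 genes had fallen again by 16h. At 16h relative to 08h the log2 difference was -2.23 ± 0.401 for *COR15A* (SE; limma adjusted p = 0.00801), -3.34 ± 0.309 for *COR15B* (limma adjusted p = 2.37e-04) and -2.14 ± 0.333 for AT4G30650 (limma adjusted p = 0.0039). Of all tested probe sets 3.72% were called lower. Without the filter the calls of *COR15A* (adjusted p = 0.109) and AT4G30650 (0.0635) ended, and that of *COR15B* did not.

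The 16h array can be set against the 04h array to compare the levels on either side of the maximum. The log2 difference of 16h minus 04h was -0.20 for *COR15A* (95% interval -1.09 to 0.69), 0.10 for *COR15B* (-0.58 to 0.79) and 1.05 for AT4G30650 (0.31 to 1.79). The adjusted p of limma was 0.863, 0.913 and 0.0889, so 0 of 3 passed, against 8.16% of all tested probe sets. Of the 3, 1 had an unadjusted p under 0.05, as did 20.2% of all tested probe sets. In intensity, AT4G30650 had 461.3 at 16h, against 213.8 at 04h. It passed with quantile normalization (adjusted p = 0.041) and with the 2 high-control arrays as a block (0.0114). Leaving out 1 array of 00h or 12h kept the difference at 1.05 but left 1 pair of arrays for the spread. It also redrew the filter on dim probe sets, so calls from those fits are not given.

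Between 16h and 20h the log2 difference of 20h minus 16h was -2.44 ± 0.401 for *COR15A*, -1.64 ± 0.309 for *COR15B* and -1.36 ± 0.333 for AT4G30650 (SE). That of *COR15A* was the lowest of all 13647 tested probe sets, *COR15B* stood at place 23 from the bottom and AT4G30650 at 56. Genes picked as high at 12h and low at 00h come down between these hours, so these places are not independent of the choice. None of the 3 passed limma's adjusted threshold (adjusted p = 0.113, 0.164 and 0.35), and only 0.00733% of all tested probe sets did. All 3 had an unadjusted p under 0.05, as did 5.23% of all tested probe sets. With any 1 array of 00h or 12h left out, the 3 differences were unchanged. The spread then rested on 1 pair of arrays, so calls from these fits are not given. With the 2 high-control arrays as a block all 3 passed (adjusted p = 0.0011, 0.0158 and 0.024). The block leaves less data to estimate the spread than the main fit. It changes that spread and not the differences, so these calls are not stronger evidence.

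**Figure D3:**
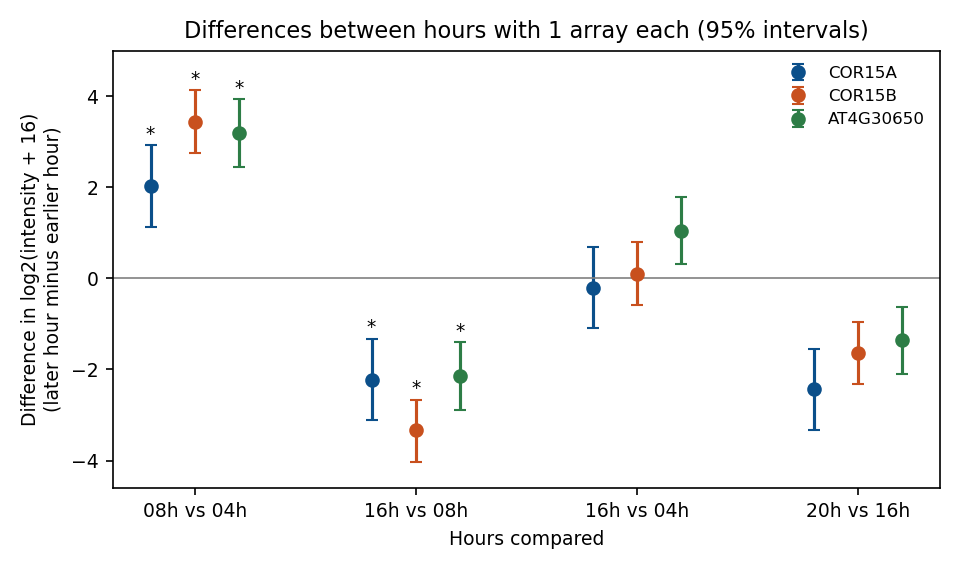
Differences in log2(intensity + 16), later hour minus earlier hour, for COR15A, COR15B and AT4G30650 between hours with 1 array each. Points are estimates, bars are 95% intervals of the limma fit and an asterisk marks an adjusted p under 0.05; all genes pass at 08h vs 04h and at 16h vs 08h, and none at 16h vs 04h or 20h vs 16h.

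Few other cold-response genes could be read. Of 25 listed effectors of the cold response 6 have a named probe set, among them the *COR15* pair, and of 16 listed regulators 1 does. The *CBF* genes are not analysed here, since no probe set is tied to them alone in the tables used. Of 8 listed genes of the RCI2 family 5 have one. Leaving out the members, 9 genes remained and 7 were tested at 12h relative to 00h: 2 were higher, 1 was lower and 4 did not pass, with a median log2 difference of 0.34, against 0.06 over all tested probe sets. Of all tested probe sets 21.9% were called higher and 18.6% lower, so the share called among these genes is near that of the array.

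AT4G30660, the direct neighbour of AT4G30650 on chromosome 4, had the larger change of the 2 genes called higher. Its intensity was 38.2 and 34.3 at 00h, 296.1 at 04h, 896.0 at 08h, 576.4 and 683.0 at 12h, 156.2 at 16h and 89.3 at 20h. It was highest at 08h, like *COR15B*, and its 12h arrays lay above both 00h arrays. The log2 difference of 12h minus 00h was 3.62 ± 0.208 (SE; limma adjusted p = 1.77e-06). At 08h relative to 04h it rose by 1.55 ± 0.295 (adjusted p = 0.0405) and at 16h relative to 08h it fell by 2.40 ± 0.295 (adjusted p = 0.00101).

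*LTI30*, which encodes a dehydrin, a hydrophilic protein made in cold and drought, was the other gene called higher at 12h. Its intensity was 22.8 and 14.1 at 00h, 66.0 at 04h, 198.2 at 08h, 152.3 and 49.5 at 12h, 57.0 at 16h and 38.7 at 20h. The log2 difference of 12h minus 00h was 1.62 ± 0.385 (SE; limma adjusted p = 0.00723), and its single 08h array was the highest. Without the filter on dim probe sets this call ended (adjusted p = 0.0749). Array 12h A, with high hybridisation controls, was 3.08 times 12h B here. The log2 difference was 0.94 without 12h A and 2.30 without 12h B. *COR47*, another dehydrin gene, had 272.8 ± 137 at 12h and 200.9 ± 45.7 at 00h (SD, n = 2 arrays each) and did not pass (0.34 ± 0.315). Its log2 difference was -0.16 without 12h A and 0.85 without 12h B.

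*COR27*, a cold-regulated gene tied to the clock, and AT4G33980, listed with it, had another course. Both were near 0 at 04h, with 0.8 and 0.4, and had 168.4 and 118.5 at 08h, a log2 difference of 3.46 ± 0.314 (SE; limma adjusted p = 8.43e-04) and 3.04 ± 0.479 (adjusted p = 0.0146). With 04h near 0, the size of these differences is set by the pseudocount of 16. Unlike the members they were high at 16h and 20h, with 201.8 and 233.1 for *COR27* and 191.6 and 194.2 for AT4G33980. Neither passed at 12h relative to 00h (-0.53 ± 0.222 and 0.55 ± 0.338), although *COR27* passed with arrays scaled to 1 median (-0.72). The difference of AT4G33980 was 1.08 without 12h A and 0.02 without 12h B.

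*STZ*, a zinc-finger repressor gene that responds to cold, salt and touch, ran against the members. Its intensity was 44.1 and 23.7 at 12h, against 133.9 and 146.6 at 00h, and its lowest hourly mean was at 08h (26.2). It was lower at 12h by a log2 difference of -1.68 ± 0.26 (SE; limma adjusted p = 6.27e-04). AT2G24040 of the RCI2 list did not pass (0.16 ± 0.24), with 55.0 ± 9.19 at 12h and 47.35 ± 7.85 at 00h (SD, n = 2 arrays each). AT1G57550 and AT2G38905 lay below the filter, with intensities of at most 19.6 and 13.9 on any array. A 24 h rhythm was called for 3 of the 7 tested genes, AT4G30660, *LTI30* and *STZ*, with fitted peaks at 9.71 h, 9.55 h and 20.2 h, and for 40.7% of all tested probe sets. The count was 4 without 12h A and 2 without both high-control arrays, a setting chosen after seeing the data. The clock gene *GI*, from a separate list, peaked at 8.50 ± 0.318 h on the fitted curve, with 372.3 at 08h, against 70.4 at 04h and 7.8 at 16h. None of the 15 listed genes of abscisic acid and drought response has a named probe set here.

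**Figure D4:**
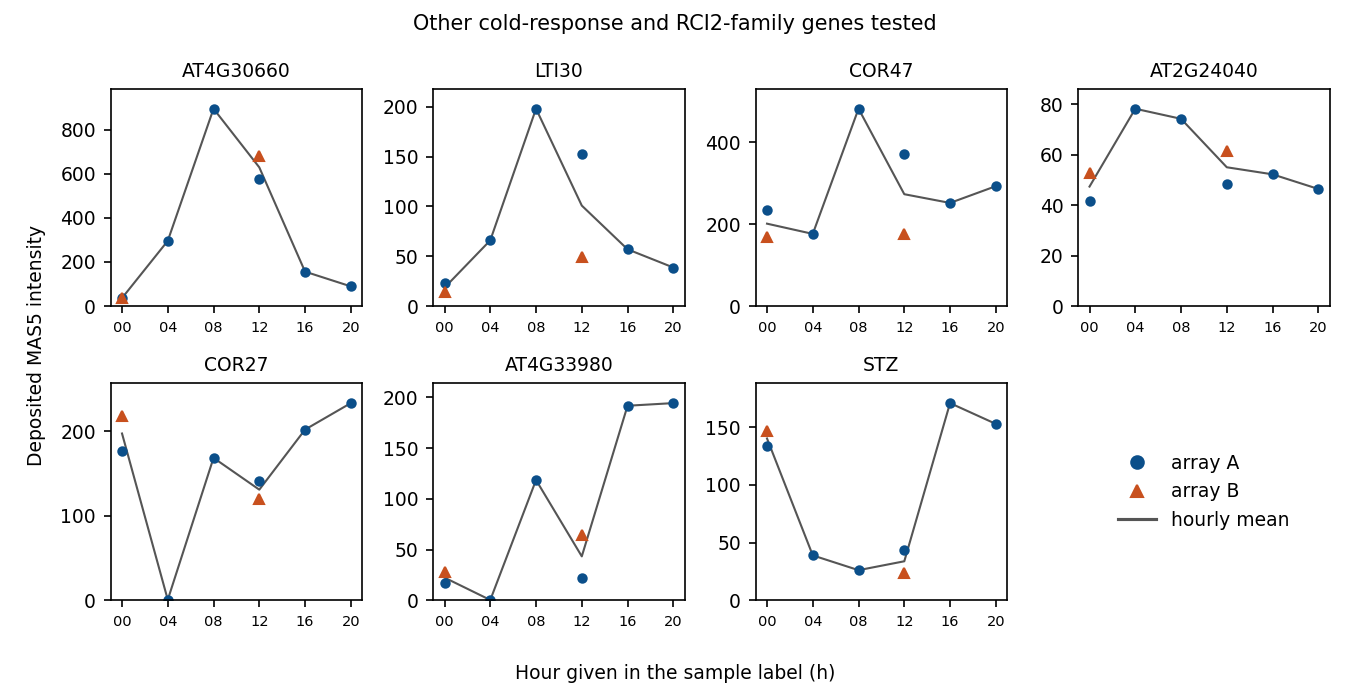
Deposited MAS5 intensity (linear axes from 0, scaled per panel) of the 7 tested genes of the cold-response and RCI2 lists other than the members, against the hour in the sample label; circles are arrays A, triangles arrays B (00h and 12h only) and lines join hourly means. AT4G30660, LTI30 and COR47 are highest at 08h, COR27 and AT4G33980 are near 0 at 04h (0.8 and 0.4), and STZ has its lowest hourly mean at 08h (26.2).

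The 3 members were not each other's nearest match in shape. Over the 8 arrays, Pearson's r of log2 values was 0.9691 between *COR15A* and *COR15B*, 0.9648 between *COR15A* and AT4G30650 and 0.969 between *COR15B* and AT4G30650. Of the tested probe sets, 194 were closer to *COR15A* than *COR15B* was, and 47 were closer to *COR15B* than *COR15A* was. The closest named probe sets were AT1G21440 (r = 0.9981), AT3G13930, *TUB9* (a beta-tubulin gene), AT4G13170 and AT3G62870 for *COR15A*, down to r = 0.9921. For *COR15B* they were *BGLU44* (a beta-glucosidase gene, r = 0.9923), AT4G27900, AT3G13160, AT4G17100 and AT2G05120, down to 0.9834. For AT4G30650 they were AT4G27900 (0.9911), *DPE1* (of the plastidial disproportionating enzyme of starch breakdown), AT1G67300, AT1G27030 and AT2G37660, down to 0.9852. These genes followed the shape at a smaller scale, with log2 differences of 12h minus 00h from 0.80 to 2.55, against 4.50 to 5.40 for the members. The members were picked by this same difference, so the gap in size follows from the choice and is no result about them. *BGLU44*, like *COR15B*, had its maximum at 08h, with 1747.2, against 1135.4 and 1218.9 at 12h. The correlations share arrays and scaling and are given without a test.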

How the data were processed

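Messenger RNA was measured on 8 one-colour Affymetrix arrays. The deposited values are linear-scale intensities, 1 for every probe set on every array, made by the authors with MAS5 (a summary of perfect-match and mismatch probes) per the submitters' processing notes, with no version given in the sources used here. The mean after trimming 2% at each end is 100 on every array, so the authors' scaling removes any difference in total mRNA. The number of arrays limits the precision.

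From the intensities, log2(value + 16) was computed, which understates changes of dim probe sets. Of 22746 probe sets other than the 64 controls, the dimmest 40% by mean log2 value were set aside, which left 13647, all members included. Hours were compared with limma 3.58.1 in R 4.3.3 (hour as a factor, 2 residual degrees of freedom, eBayes with an intensity trend, Benjamini-Hochberg over all 13647, threshold 0.05), and the 24 h curve was a cosine and sine of the hour. The fits were also run on simulated data that gave all arrays of a probe set the same spread. This could not check if single arrays vary like the paired ones. The members and gene lists were chosen with earlier results of these data known, and the promoter search that had been planned was not run. The text names the members, every gene of the cold and RCI2 lists with a named probe set, a few markers, and the 5 named probe sets most correlated with each member. A gene's brightest probe set was used, and symbols follow the platform's table and RefSeq. Whether the probes of *COR15A* and *COR15B* take up each other's transcript was not tested.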

Additional observations from a re-analysis of the deposited data

How the results depend on the processing

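Each test was repeated under 13 other settings, and no difference of a member turned its sign. Calls of the members that ended were those of *COR15A* at 08h vs 04h (log2 2.07 with a pseudocount of 1, 2.05 with arrays scaled to 1 median, 2.02 without the trend and without the filter), *COR15B* and AT4G30650 there without the filter (3.44 and 3.19), and *COR15A* and AT4G30650 at 16h vs 08h without the filter (-2.23 and -2.14). The filter's removal adds dim probe sets to the adjustment. Without it there were 0 calls at 08h vs 04h (140 with it), 212 at 16h vs 08h (1163), 250 at 16h vs 04h (1113) and 0 at 20h vs 16h (1), and the cause was not tested. Calls gained were AT4G30650 at 16h vs 04h with quantile normalization (1.11) and, at 1.05, with the replicate block and the block of high-control arrays. At 20h vs 16h they were *COR15A* (-2.44), *COR15B* (-1.64) and AT4G30650 (-1.36) with either block. Calls gained in fits without 1 array of 00h or 12h are left out, since the spread then rests on 1 pair of arrays.

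The labels do not say that the letters A and B mark anything shared, and deviations of the A arrays from the means of 00h and 12h correlated at 0.297 over probe sets. With the letter as a replicate block the calls went to 460 at 08h vs 04h, 2235 at 16h vs 08h, 2042 at 16h vs 04h and 109 at 20h vs 16h. A block of the 2 arrays with high controls gives the same values, since both leave the same residual. Leaving out 1 array of 00h or 12h kept every log2 difference between the single-array hours and changed the filter and the estimate of the spread. Quantile normalization gave 4 calls at 20h vs 16h. Scaling to 1 median shifted the median of all tested probe sets by -0.161 at 12h vs 00h and by 0.106 at 20h vs 16h.

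Of the other cold-list genes at 12h vs 00h, 1 was higher without the filter and 2 were lower with 1 median and with either block. *COR47* turned to -0.16 without 12h A (0.85 without 12h B). Crossing times depend on the level chosen. Upward crossings were at 4.38, 4.73 and 4.72 h at the 25% level and at 7.63, 6.91 and 7.08 h at the 75% level for *COR15A*, *COR15B* and AT4G30650, and at 3.47, 4.85 and 4.88 h on the log2 scale. Downward ones were at 15.6, 14.5 and 15.8 h at the 25% level, at 13.2, 10.1 and 13.3 h at the 75% level, and at 16.3, 15.0 and 17.0 h on the log2 scale. With 1 median the upward crossing of *COR15B* stayed at 5.82 h. Without single arrays the downward crossing ran from 14.3 to 14.4 h for *COR15A* and from 14.3 to 14.5 h for AT4G30650, and the upward one from 5.37 to 6.84 h and from 5.77 to 6.30 h. Without both high-control arrays, a setting chosen after seeing the data, they were at 14.4 and 14.3 h.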
